A study of Mus musculus with 3 samples.

Results

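The genes described here are Atf4, the transcription factor at the centre of the integrated stress response, and 9 genes that it is known to switch on or to work beside: Ddit3, Trib3, Asns, Mthfd2, Psat1, Phgdh, Chac1, Slc7a5 and Slc3a2. They were taken by name, as every non-control probe of the array that carries one of these gene names. All 10 genes were found, among 19861 named genes on the array, and 14 probes measured them. Trib3 and Slc3a2 had 2 probes each, Phgdh had 3, and the other 7 genes had 1.

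The integrated stress response joins several alarms to 1 switch. Kinases that sense lack of amino acids, unfolded protein in the endoplasmic reticulum, double-stranded RNA or lack of heme all phosphorylate the translation factor eIF2, which lowers protein synthesis in general and lets ribosomes reach the coding sequence of Atf4. The Atf4 protein then pairs with C/EBP proteins and switches on genes that make, import and charge amino acids. In the kidney, the proximal tubule takes amino acids back from the filtrate, and its cells hold a set of amino acid transporters and enzymes of their own. Because Atf4 is controlled mostly at translation, its mRNA level, which is what the array reads, does not give the level of its protein.

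The samples were mPTECs (the abbreviation is that of the labels), kidney cells of 1-month-old male mice, taken fresh from isolation (day 0), after 1 day on culture dishes and after 3 days on dishes. The labels name no strain, mutation or drug. The medium was DMEM/F12 with insulin, transferrin, selenium, hydrocortisone, non-essential amino acids, antibiotics and 1% serum, so all cultured cells shared it and the fresh cells had not been in it. Each day was 1 RNA sample on 1 Agilent array with 1 dye, so no difference has a replicate check and no test was made.

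A signal is given as a multiple of the 75th percentile of its array, which stood at 1184, 1509 and 1515 intensity units on days 0, 1 and 3, and a level is never set against that of another probe. No spot was saturated, and between 86.9% and 88.5% of the probes were well above background. Where a probe was spotted at least 5 times on an array, the median SD of its spots was 0.146 log2 units, so spot noise by itself spreads a ratio of 2 arrays by 1.15-fold. Each of the 14 probes had 1 spot on an array, well above background on all 3 arrays and with no outlier flag, and the scanner software put its own error of these signals at 10% to 10.2%. The summed signal of 9 proximal tubule markers was 855, 145 and 13.8 multiples on days 0, 1 and 3, and that of the loop of Henle pair Umod and Slc12a1 was 333, 87.4 and 14.3, so fresh cells carried markers of both segments. Summed signals were 0.382, 1.43 and 22.7 for the proliferation pair Mki67 and Top2a, 4.93, 3.95 and 10.3 for 4 fibroblast genes, 1.28, 2.85 and 1.61 for 4 leukocyte and macrophage genes, 6.10, 4.09 and 1.11 for 3 endothelial genes, 58.5, 4.11 and 2.37 for 4 distal and collecting duct genes, and 3.57, 0.568 and 1.02 for 3 podocyte genes. Members of a list did not always move alike: of the leukocyte genes, Cd68 was 12.2-fold higher and Ptprc 2.81-fold lower on day 1 than on day 0, and of the fibroblast genes, Col1a1 and Col1a2 were 7.12-fold and 4.02-fold higher and Pdgfrb and Dcn 1.84-fold and 1.95-fold lower on day 3 than on day 0. Other probes of Ptprc ranged from -1.43 to 2.21 in log2 ratio on day 1. Those of Col1a1 ranged from -0.21 to 0.98 on day 3. All of these markers were well above background on every array. The make-up of the samples thus moved with the day, its part in the results was not tested, and in RNA of a whole sample fewer cells of a type and less RNA per cell cannot be told apart.

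The sequences that Atf4 is known to bind with C/EBP partners share the core TGATGNAA, and 3 of the members held it near their start. Promoters from 250 bases before to 50 bases after the start were read from RefSeq (GRCm38.p6) and searched on both strands; 9 of the 10 genes were in that table, all but Slc7a5. The core stood in Asns, Chac1 and Trib3, which makes 33.3% of 9, against 3.97% of all 32851 promoters in the table and 4.51% of 27025 genes. The windows of these 3 genes are shown because they carry the letters, on the gene's own strand from 5′ to 3′, with the core in capitals.
Asns, chr6:7693214-7693243, minus strand: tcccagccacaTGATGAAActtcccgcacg
Chac1, chr2:119351038-119351067, plus strand: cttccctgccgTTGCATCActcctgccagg
Trib3, chr2:152344028-152344057, minus strand: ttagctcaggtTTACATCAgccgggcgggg

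In Asns the core reads TGATGAAA and lies at bases -23 to -16 from the start. In Chac1 it is on the other strand, reads TGATGCAA there, and lies at bases -193 to -186. In Trib3 it is also on the other strand, reads TGATGTAA, and lies at bases 15 to 22 after the start. With the narrower core TGATGCAA, Chac1 was the 1 member left, against 0.895% of all promoters. For the surroundings of the core, the 250 bases before the start of Asns and of Chac1 read as follows, again with the core in capitals.
Asns, chr6:7693210-7693459, minus strand: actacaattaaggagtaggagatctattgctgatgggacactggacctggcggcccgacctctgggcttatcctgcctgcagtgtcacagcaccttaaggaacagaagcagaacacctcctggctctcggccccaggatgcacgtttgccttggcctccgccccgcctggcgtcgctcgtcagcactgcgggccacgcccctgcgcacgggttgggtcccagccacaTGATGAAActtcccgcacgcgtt
Chac1, chr2:119350992-119351241, plus strand: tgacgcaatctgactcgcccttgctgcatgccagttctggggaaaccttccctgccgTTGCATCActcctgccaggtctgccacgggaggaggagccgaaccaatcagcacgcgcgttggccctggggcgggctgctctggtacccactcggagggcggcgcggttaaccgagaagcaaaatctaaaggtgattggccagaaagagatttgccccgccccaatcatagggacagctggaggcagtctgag

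A match is a description of letters and no evidence of binding, and no match says only that these letters were not in that window.

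Of the 10 genes, 6 were at least 4-fold higher on day 1 than on day 0, against 3.41% of 18904 genes measured. They were Trib3, Asns, Mthfd2, Phgdh, Chac1 and Slc7a5. None was 4-fold lower, against 5.27% of the genes. Another 2, Atf4 and Psat1, were between 2-fold and 4-fold higher. With these, 8 of the 10 genes were at least 2-fold higher, against 13.6% of all genes. Ddit3 and Slc3a2 lay within 2-fold, as did 70.8% of the genes. The median log2 ratio of the 10 genes was 2.82, where that of all genes was -0.11.

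Day 3 kept the same 6 genes above the 4-fold line relative to day 0, against 5.34% of 19102 genes (7 members with arrays centred on their median, which adds Psat1, and 8 with scaling to the spike-in controls, which adds Atf4 as well), and none was 4-fold lower, against 8.12%. Ddit3 and Slc3a2 again lay within 2-fold, as did 61.6% of the genes. The median log2 ratio of the 10 was 3.59, against -0.10 over all genes. Between the cultured days none was 4-fold higher on day 3 than on day 1, against 1.72% of 19002 genes, none was 4-fold lower, against 1.36%, and all 10 lay within 2-fold, as did 84.3% of the genes, so these counts are near the background. The median was 0.44 against -0.04 over all genes. Slc7a5, Trib3, Phgdh and Chac1 were 1.94-fold, 1.84-fold, 1.83-fold and 1.5-fold higher on day 3 than on day 1, and with spike-in scaling these 4 passed 2-fold, at log2 ratios of 1.41, 1.33, 1.33 and 1.04. Both ratios to day 0 share the 1 day 0 array, so they are not independent of each other.

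**Figure D1:**
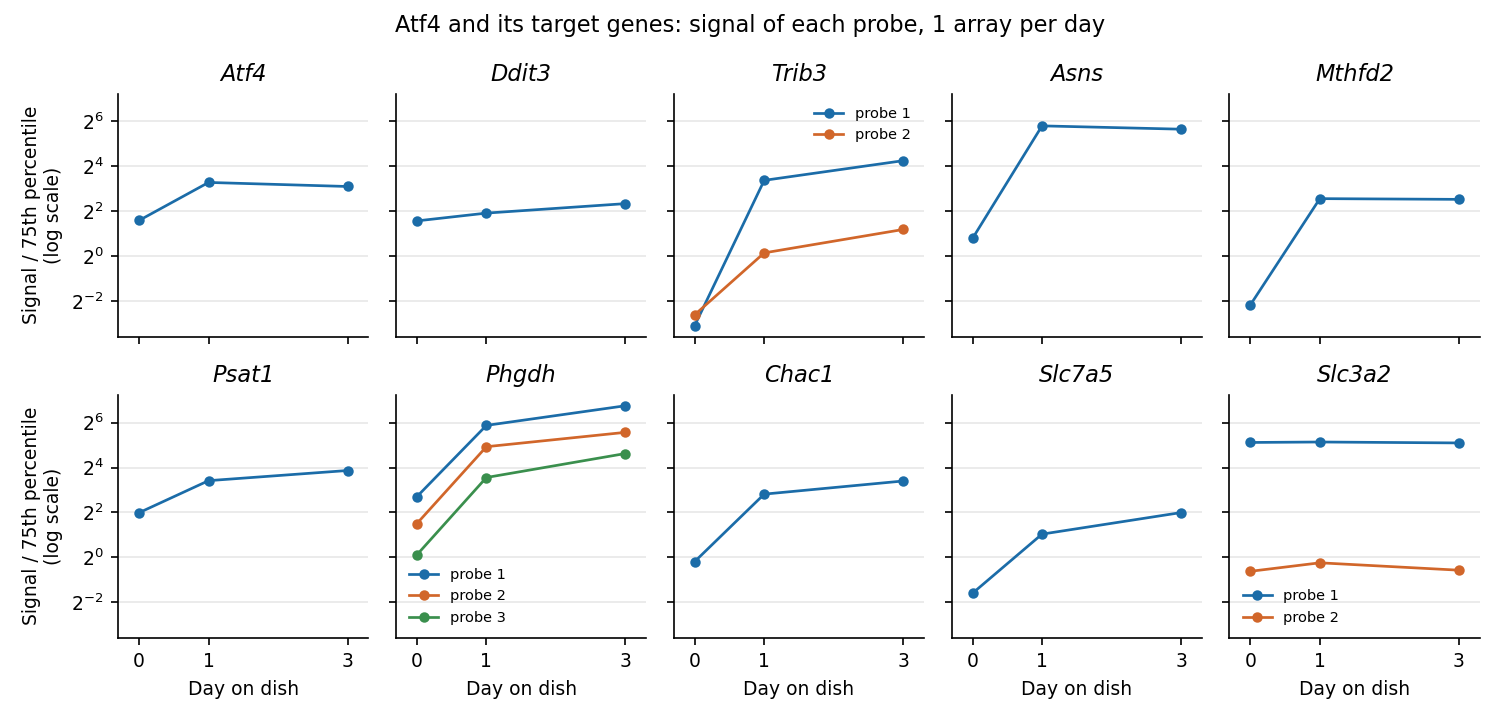
Signal of each of the 14 probes over the 75th percentile of its array (log2-spaced axis) against the day on the dish, 1 panel per gene and 1 array per day. Asns and Mthfd2 are flat after day 1, Trib3, Phgdh, Chac1, Slc7a5, Psat1 and Ddit3 are higher again on day 3, and the Slc3a2 probes are level.

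**Figure D2:**
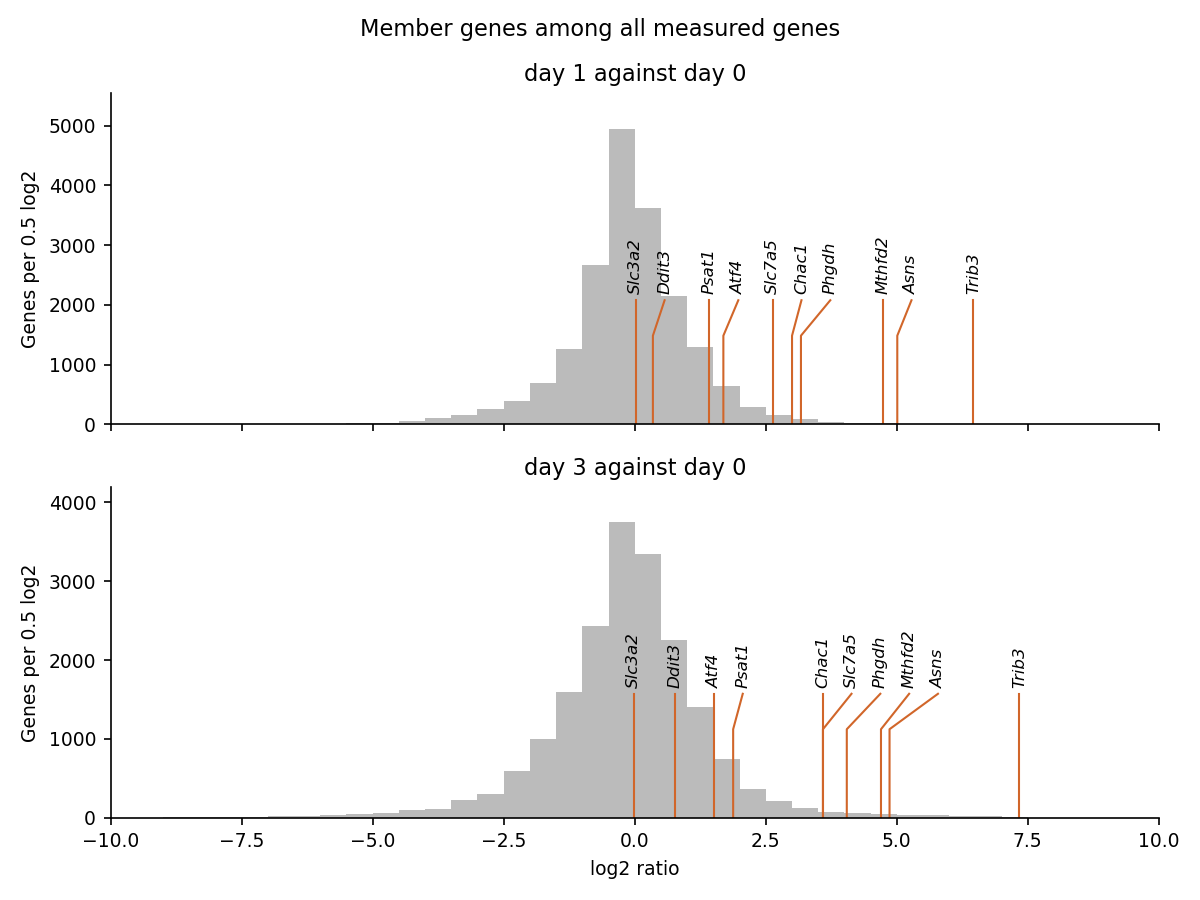
Histogram of log2 ratios of all measured genes (grey bars, 0.5 log2 wide) for day 1 against day 0 above and day 3 against day 0 below, with each member gene marked at its own ratio. Trib3, Asns and Mthfd2 lie in the far right tail in both panels and Slc3a2 lies at the centre.

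The transcription factors showed modest differences. Atf4 (probe at chr15:80087079-80087138, plus strand; positions of probes are on mm9, as in the array files) had signals of 3.01, 9.73 and 8.59 on days 0, 1 and 3. Both cultured days were above the fresh cells and close to each other: Atf4 was 3.23-fold higher on day 1 than on day 0 (log2 ratio 1.69) and 2.85-fold higher on day 3 than on day 0 (1.51). Ddit3 encodes Chop, a factor that in lasting stress shifts cells towards death, and its probe at chr10:126732518-126732821 spans 304 bases of genome with 60 bases of probe. Its signals were 2.97, 3.78 and 5.06, the lowest in fresh cells and the highest on day 3, and its ratios to day 0 were 1.27-fold on day 1 and 1.70-fold on day 3. By size of ratio, Atf4 ranked 978 and Ddit3 5629 among the 18904 genes of day 1 against day 0.

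Trib3 encodes a pseudokinase that binds Atf4 and restrains it, and it had the largest ratio of the 10 genes. Its brighter probe, at chr2:152163355-152163414, had signals of 0.118, 10.4 and 19.1. This was 88.3-fold higher on day 1 than on day 0 and 162-fold higher on day 3 than on day 0, or 6.46 and 7.34 in log2, which ranked Trib3 15 among 18904 genes and 12 among 19102. The other probe, at chr2:152164025-152164084, had signals of 0.164, 1.11 and 2.28, which is 6.75-fold higher on day 1 and 13.9-fold higher on day 3 than on day 0. Both probes ran the same way on both days, but the sizes they give differ by far more than the 1.15-fold spread of spots, so the size of the Trib3 difference depends on the probe. On day 3 against day 1 the probes were closer, at 1.84-fold and 2.06-fold higher.

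Asns encodes asparagine synthetase, which makes asparagine from aspartate and glutamine. Its probe at chr6:7625194-7625253 had signals of 1.73, 55.7 and 50.3, low in fresh cells and high on both cultured days. Asns was 32.2-fold higher on day 1 than on day 0 and 29.1-fold higher on day 3 than on day 0, and 0.903 times its day 1 signal on day 3. It is the member with the core closest before its start, in the window printed above.

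Serine synthesis and the mitochondrial folate pathway, which takes the carbon units of serine for making purines, were represented by Phgdh, Psat1 and Mthfd2. Phgdh encodes the enzyme of the first step of serine synthesis from glycolysis. Its probes at chr3:98117098-98117157 and chr3:98117094-98117124 overlap on the genome, so they are no independent checks of each other, and the third lies at chr3:98118326-98119034. The brightest, at chr3:98117098-98117157, had signals of 6.51, 58.7 and 108 on days 0, 1 and 3. The second probe had 2.84, 30.4 and 47.4, and the third had 1.08, 11.8 and 24.6. All 3 probes put the days in the same order, with day 3 highest and day 0 lowest. They were 9.01-fold, 10.7-fold and 10.9-fold higher on day 1 than on day 0, and 16.5-fold, 16.7-fold and 22.8-fold higher on day 3 than on day 0.

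Psat1, the aminotransferase of the next step, differed less. Its signals at chr19:15979970-15980029 were 3.97, 10.7 and 14.6, with the fresh cells lowest, and it was 2.69-fold higher on day 1 and 3.68-fold higher on day 3 than on day 0. Mthfd2, a folate enzyme of mitochondria that is known to be low in most adult tissue and high in dividing cells, had signals of 0.222, 5.90 and 5.78 at chr6:83256518-83256577. Fresh cells were far below both cultured days, which were alike: Mthfd2 was 26.6-fold higher on day 1 and 26.0-fold higher on day 3 than on day 0. The proliferation pair was also higher on day 1 than on day 0, Mki67 3.54-fold and Top2a 6.36-fold. Mki67 had 0.351, 1.24 and 19.7 and Top2a 0.0302, 0.192 and 2.93. By these brightest probes the pair was higher again on day 3, while Mthfd2 was alike on both cultured days. Other probes of Top2a gave smaller log2 ratios to day 0, of 0.06 to 0.80 on day 1 and 0.33 to 3.29 on day 3. The other probe of Mki67 gave 2.22 and 6.33. The relation of Mthfd2 to cell division was not tested.

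Chac1 encodes an enzyme that breaks down glutathione. At chr2:119179990-119180049 its signals were 0.879, 7.04 and 10.6, with the day 3 signal above that of day 1 and both above fresh cells. It was 8.01-fold higher on day 1 and 12.0-fold higher on day 3 than on day 0, and 1.5-fold higher on day 3 than on day 1. Its relative Chac2, a slower enzyme of the same reaction, ran the other way, with 2.24, 1.68 and 1.07, or 2.09-fold lower on day 3 than on day 0. Ggct had 6.28, 2.12 and 2.81, which is 2.96-fold lower on day 1 and 2.23-fold lower on day 3 than on day 0. Its other probe gave log2 ratios of -0.27 and -1.20.

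Slc7a5 and Slc3a2 encode the light and the heavy chain of the exchanger that brings large neutral amino acids such as leucine into cells. The 2 genes did not move together. Slc7a5, at chr8:124405142-124405201, had signals of 0.331, 2.05 and 3.99, and was 6.20-fold higher on day 1 and 12.1-fold higher on day 3 than on day 0. Slc3a2 was level: its brighter probe at chr19:8782189-8782248 had 34.6, 35.1 and 34.2, and the other, at chr19:8788183-8788242, had 0.651, 0.846 and 0.674. The ratios of the brighter probe were 1.01-fold for day 1 against day 0 and 0.986-fold for day 3 against day 0, within the spread of spots, and those of the other probe were 1.3-fold and 1.04-fold. The heavy chain also serves other light chains, described with the transporters.

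**Figure D3:**
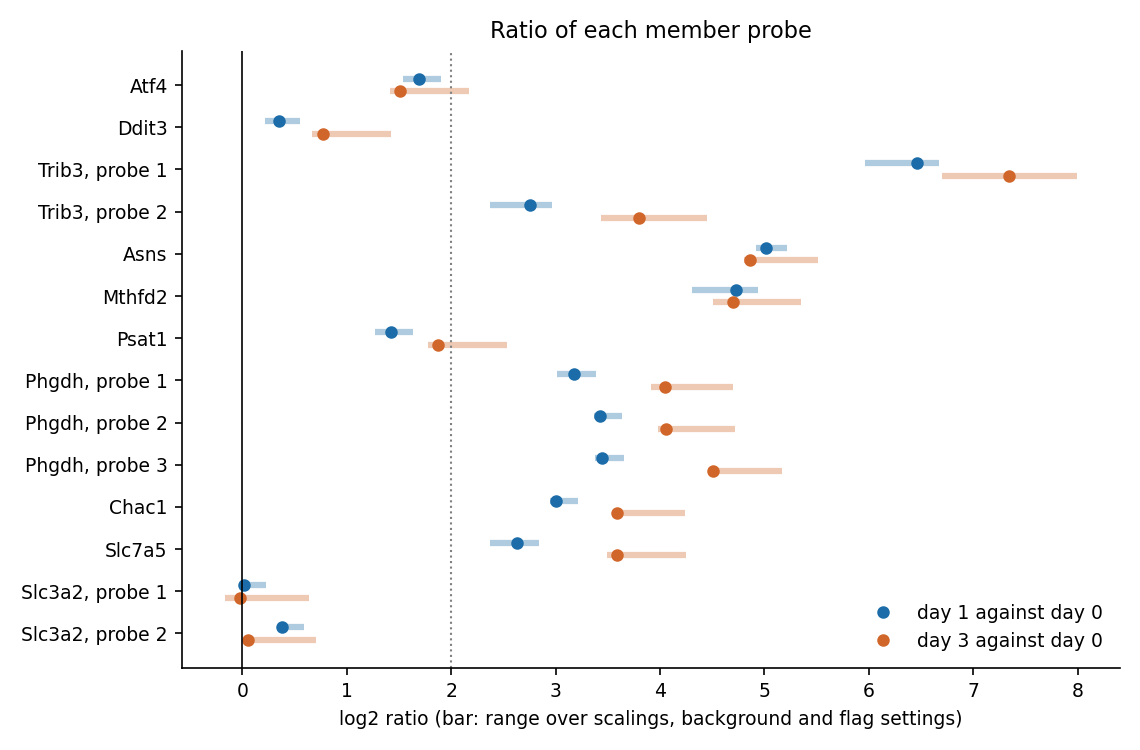
Log2 ratio of each member probe for day 1 against day 0 (blue) and day 3 against day 0 (orange), with bars for the range over the other scalings, normexp background correction and kept outlier spots, and the dotted line at 4-fold. The bars of Trib3, Asns, Mthfd2, Phgdh, Chac1 and Slc7a5 stay right of the dotted line, and those of Atf4 and Psat1 on day 3 cross it.

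The eIF2 kinases, eIF2, its exchange factor and the feedback phosphatases, together with Nck1, Dnajc3, Gcn1 and Impact, made a list of 16 genes. Of these, 1 was at least 4-fold higher on day 1 than on day 0 and none as much lower, against 3.41% and 5.27% of all genes. The median log2 ratio of the list was 0.42. On day 3 none was past 4-fold either way (median 0.03), against 5.34% of all genes higher and 8.12% lower. At the 2-fold line 4 were higher on each day, against 13.6% of all genes on day 1 and 16.6% on day 3. Of the exchange factor eIF2B, which reloads eIF2, Eif2b1 was 2.38-fold and 2.44-fold, Eif2b5 2.35-fold and 2.15-fold, Eif2b2 1.89-fold and 2.24-fold, Eif2b4 1.96-fold and 1.79-fold and Eif2b3 1.21-fold and 0.905-fold its day 0 signal on days 1 and 3. The gene past 4-fold was Eif2s1, the eIF2 subunit that the kinases phosphorylate, with signals of 4.12, 20.9 and 16.5, or 5.08-fold higher on day 1 and just under 4-fold higher on day 3 (past it with median centring, reference gene or spike-in scaling, or normexp), and its other probe gave log2 ratios of 2.51 and 1.40. Among the kinases, Eif2ak4 (Gcn2, the sensor of uncharged tRNA) had 0.748, 1.05 and 0.613. Eif2ak3 (Perk, the sensor in the endoplasmic reticulum) had 1.93, 1.06 and 1.61. Its other probe gave log2 ratios of -2.47 on day 1 and -2.56 on day 3. The interferon-inducible Eif2ak2 had 0.442, 0.943 and 0.567 and the heme sensor Eif2ak1 had 0.795, 0.674 and 0.854, so no kinase was past 4-fold by its brightest probe. Ppp1r15a, the phosphatase subunit that Atf4 and Chop switch on to end the response, had 3.73, 4.07 and 3.25.

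Factors that pair with Atf4 or act beside it were split. Of 17, 1 was higher and 3 were lower by at least 4-fold on day 1 than on day 0, against 3.41% and 5.27% of all genes. On day 3, 2 were higher and 4 lower than on day 0, against 5.34% and 8.12% (3 higher and 2 lower with spike-in scaling). The medians were -0.23 and 0.11. Atf5, which like Atf4 is controlled by translation, had signals of 3.55, 53.6 and 19.2, highest on day 1, and was 15.1-fold higher on day 1 and 5.43-fold higher on day 3 than on day 0. Nupr1, a small stress-induced chromatin protein, had 8.02, 18.8 and 37.0, and was 4.61-fold higher on day 3. On the other side stood Atf3 with 35.8, 4.24 and 7.80, Jun with 17.6, 2.35 and 2.32 and Fos with 43.3, 0.416 and 1.1, early response genes that were highest in the fresh cells. The partner gene Cebpb had 11.2, 19.3 and 19.5, or 1.73-fold higher on day 1. Cebpg, another partner, was 3.17-fold higher on day 1, although its other probes gave log2 ratios of 0.11 to 0.73. The other C/EBP genes of the list were lower in culture. Cebpd was 3.91-fold lower on day 1 and 1.56-fold lower on day 3 than on day 0, and Cebpa 1.75-fold and 2.73-fold lower.

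Other output genes of the response were not a uniform group. Of 21, 3 were higher and 1 was lower by at least 4-fold on day 1 than on day 0, against 3.41% and 5.27% of all genes. On day 3, 3 were higher and 1 was lower, against 5.34% and 8.12%. The medians were -0.25 and -0.34. The count of higher genes was 1 on day 1 with normexp background correction, and on day 3 it was 5 with median centring and 7 with spike-in scaling. In these settings, in that order, 498, 1425 and 2121 of all genes were 4-fold higher. Eif4ebp1, the translation repressor 4E-BP1, was 13.2-fold higher on day 1 and 11.3-fold higher on day 3 than on day 0, with 5.13, 67.7 and 58.2. Stc2, a secreted stress glycoprotein, was 4.48-fold and 7.54-fold higher on these days, and Gdf15, a stress hormone, 3.33-fold and 5.57-fold. Ero1a, an oxidase of the endoplasmic reticulum, was 4.43-fold and 3.86-fold higher, with smaller log2 ratios of 1.07 and 1.39 by its other probe. Ndrg1, which is also a gene of hypoxia, had 259, 39.3 and 28.9, or 8.95-fold lower on day 3 than on day 0.

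The enzymes that load tRNAs with amino acids were put in a cytosolic and a mitochondrial list, and the lists differed. Each gene was counted in 1 list only, Gars and Kars as cytosolic. Of 20 genes of cytosolic tRNA synthetases, 19 were at least 2-fold higher on day 1 than on day 0, against 13.6% of all genes, 5 of them at least 4-fold, and none was lower by as much (15.6% of all genes), the median log2 ratio being 1.76. On day 3, 18 were at least 2-fold (16.6% of all genes) and 9 at least 4-fold higher than on day 0 (median 1.86). By its brightest probe none was 2-fold lower (21.7% of all genes). At 4-fold, 3.41% of all genes were higher on day 1 and 5.34% on day 3. The synthetase counts past 4-fold were 10 on day 1 with arrays centred on their median or scaled to the spike-ins, and 17 on day 3 with spike-in scaling. Of all genes, 849 and 846 were then 4-fold higher on day 1, in place of 644. With spike-in scaling 2121 were higher on day 3, in place of 1020. Of 16 mitochondrial synthetases, 2 were at least 2-fold higher on day 1 than on day 0, a share near that of all genes, and none was past 4-fold on either day (medians 0.09 and 0.15), or 1 on day 3 with median centring, quantile normalization or spike-in scaling. The 5 cytosolic genes past 4-fold on day 1 were Gars (5.90-fold), Cars (5.56-fold), Rars (5.53-fold), Iars (5.31-fold) and Tars (4.11-fold), which load glycine, cysteine, arginine, isoleucine and threonine. Wars, Vars, Mars1 and Lars joined them on day 3, at 6.15-fold, 6.90-fold, 4.94-fold and 4.84-fold higher than on day 0, while Qars, at 1.40-fold and 1.33-fold, was the lowest of the 20 on both days. Some genes had probes that disagreed: other probes of Iars ranged from -0.22 to 2.30 in log2 ratio on day 1, and those of Aars, itself 3.51-fold higher on day 1, ranged from -0.06 to 2.17. On day 3 the other probe of Hars stood at -1.38. Other probes of Qars then ranged from -1.13 to 0.81 and those of Aars from -1.09 to 2.54. For Iars the day 3 range was -0.44 to 2.76, and for Dars -0.31 to 0.74. The mitochondrial exceptions were Mars2 (3.33-fold higher on day 1) and Yars2 (2.51-fold), though the other probe of Yars2 showed no such difference.

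Among the cytosolic synthetases, 5 of the 13 found in the promoter table (38.5%) held the core TGATGNAA, against 4.51% of all genes in it. None of 13 mitochondrial ones held it, which is near that share. The windows of 4 cytosolic ones are shown, in capitals at the core, because these genes of the list carry it. The positions are again of GRCm38.p6.
Gars, chr6:55037960-55037989, plus strand: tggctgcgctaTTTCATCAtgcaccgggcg
Iars, chr13:49682126-49682155, plus strand: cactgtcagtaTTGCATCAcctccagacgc
Tars, chr15:11399655-11399684, minus strand: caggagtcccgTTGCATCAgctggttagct
Yars, chr4:129189895-129189924, plus strand: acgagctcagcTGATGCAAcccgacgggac

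**Figure D4:**
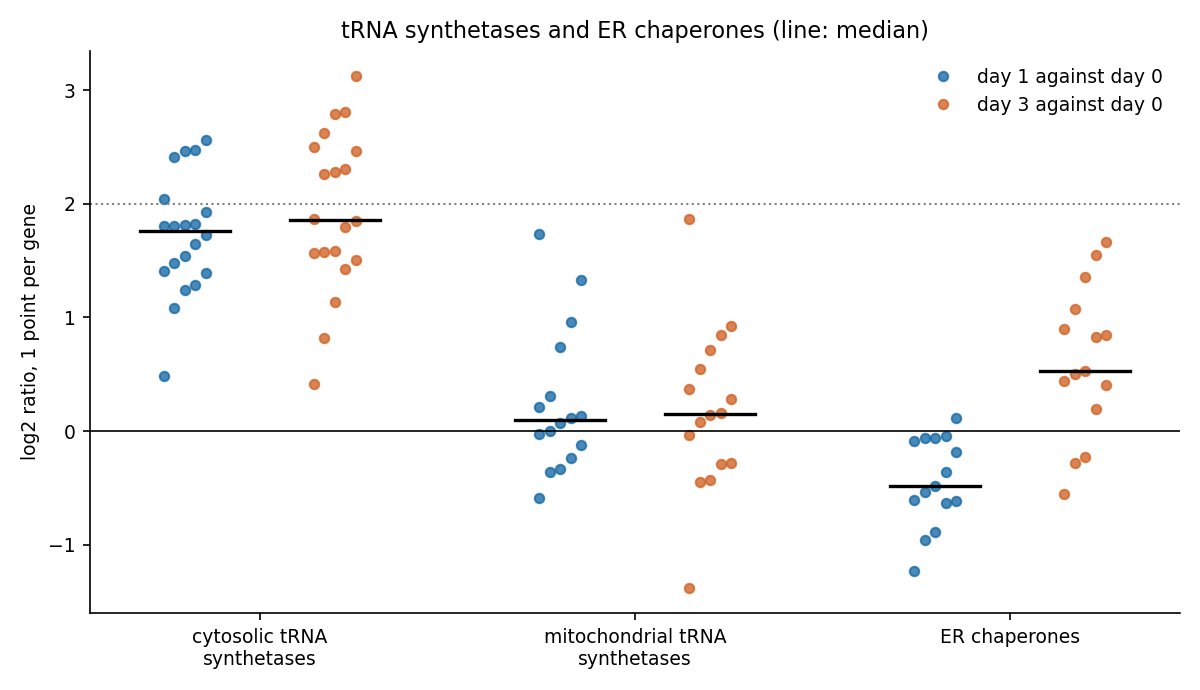
Log2 ratios of 20 cytosolic tRNA synthetase genes, 16 mitochondrial ones and 15 endoplasmic reticulum chaperone genes, 1 point per gene, for day 1 against day 0 (blue) and day 3 against day 0 (orange), with a black line at each median and a dotted line at 4-fold. By the brightest probe of each gene, the cytosolic genes lie above 0 on both days and the mitochondrial ones around 0. The chaperones are higher on day 3 than on day 1.

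The wider serine and folate pathway did not follow its members as a block. Of 18 further genes, 1 was higher and 2 were lower by at least 4-fold on day 1 than on day 0, against 3.41% and 5.27% of all genes. On day 3, 4 were higher and 2 lower, against 5.34% and 8.12%. The medians were -0.15 and -0.79. The 4 became 2 with quantile normalization and with probe averaging, and the 2 lower on day 1 became 1 with normexp and with median, reference gene or spike-in scaling. Part of the mitochondrial side was higher: Mthfd1l, which follows Mthfd2 in that pathway, had 0.219, 6.03 and 9.66, or 27.6-fold and 44.2-fold higher on days 1 and 3 than on day 0, and Aldh1l2 was 2.96-fold and 11.4-fold higher. The other probe of Aldh1l2 gave log2 ratios of 0.36 and 2.57. Psph, the last step of serine synthesis, was 2.67-fold and 4.08-fold higher. The cytosolic relative Aldh1l1 ran the other way with 23.8, 7.02 and 2.83, or 8.41-fold lower on day 3 than on day 0, and so did Shmt1, 3.42-fold lower on day 1. Shmt2, the mitochondrial enzyme that splits serine, stayed within 2-fold (0.959-fold and 1.63-fold). Gldc, of the glycine cleavage system, was 7.38-fold lower on day 1 and 8.14-fold lower on day 3. Tyms, a thymidylate enzyme of dividing cells, was 1.24-fold higher on day 1 and 4.12-fold higher on day 3, but its other probes ranged from -0.69 to 2.09 in log2 on day 3.

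Among other enzymes of non-essential amino acids, some of proline synthesis were higher in culture and some of the urea cycle and the sulfur pathway were lower. Of 18, 1 was higher and 2 were lower by at least 4-fold on day 1 than on day 0, against 3.41% and 5.27% of all genes. On day 3, 4 were higher and 4 lower, against 5.34% and 8.12%. The medians were -0.37 and -0.55. On day 1, 2 were higher with median, quantile, reference gene or spike-in scaling and 1 was lower with median or spike-in scaling, and on day 3, 2 were lower with spike-in scaling. Of the proline genes, Aldh18a1 was 12.8-fold and 22.0-fold and Pycr1 3.59-fold and 7.13-fold higher on days 1 and 3 than on day 0, while Pycrl, of the same step, was at 0.790 and 0.657 times its day 0 signal. Pck2, which makes phosphoenolpyruvate in mitochondria, was 2.53-fold and 5.93-fold higher. Ass1, which makes argininosuccinate in the tubule, had 80.8, 17.8 and 6.52, or 12.4-fold lower on day 3. Cbs, of the sulfur pathway, was 9.87-fold lower on day 3, and Glul, glutamine synthetase, 5.17-fold lower. Bcat1 was 0.935 times its day 0 signal on day 1 and 8.97-fold higher on day 3, though its other probe stood at 0.88 in log2.

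Amino acid transporters other than the members divided sharply, so that the list median hides both sides. Of 23 genes, 22 were measured on day 1. Of these, 6 were higher and 6 lower by at least 4-fold than on day 0, against 3.41% and 5.27% of all genes. On day 3 it was 6 higher and 7 lower, against 5.34% and 8.12%, with medians of -0.48 on day 1 and -0.66 on day 3. The higher genes included Slc7a11, the cystine exchanger, 48.7-fold and 39.4-fold higher on days 1 and 3 than on day 0, with a day 0 signal of 0.0216. Its size depends on the probe: the others ranged from 3.35 to 7.46 in log2 on day 1. Of the carriers of cationic amino acids, Slc7a1 (9.09-fold and 13.1-fold) and Slc7a3 (6.47-fold and 31.5-fold) were higher and Slc7a2 was 4.69-fold and 6.93-fold lower. Also higher were Slc1a4, of alanine, serine and cysteine (8.05-fold and 4.59-fold), and Slc38a1, of glutamine (4.20-fold and 10.6-fold). The other probe of Slc7a1 gave log2 ratios of only 0.36 and 0.29. Other probes of Slc38a1 ranged from 0.39 to 2.09 in log2 ratio on day 1 and from 1.18 to 3.11 on day 3. The lower genes included carriers of tubular reabsorption: Slc7a9 had 28.2, 0.862 and 0.872, its heavy chain Slc3a1 had 30.2, 3.23 and 0.418, and Slc6a19, the apical carrier of neutral amino acids, had 19.7, 10.8 and 1.41. Slc1a1, of acidic amino acids, was 5.79-fold lower on day 1 and 7.87-fold lower on day 3 than on day 0. Slc36a1, a lysosomal carrier, was 5.77-fold lower on day 3, where its other probe stood at -0.43 in log2.

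Set beside the heavy chain Slc3a2, the light chains that it carries split in this way. Slc7a5, Slc7a6 and Slc7a11 were higher in culture and Slc7a7 and Slc7a8, the light chains of the basolateral side of the proximal tubule, were lower, while Slc3a2 lay within 2-fold. Slc7a6 had 0.131, 0.544 and 0.850, or 4.14-fold and 6.48-fold higher on days 1 and 3 than on day 0. Slc7a7 had 96.6, 9.30 and 8.51, or 10.4-fold and 11.3-fold lower. Slc7a8, named after its values were seen, had 21.8, 4.98 and 6.60.

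**Figure D5:**
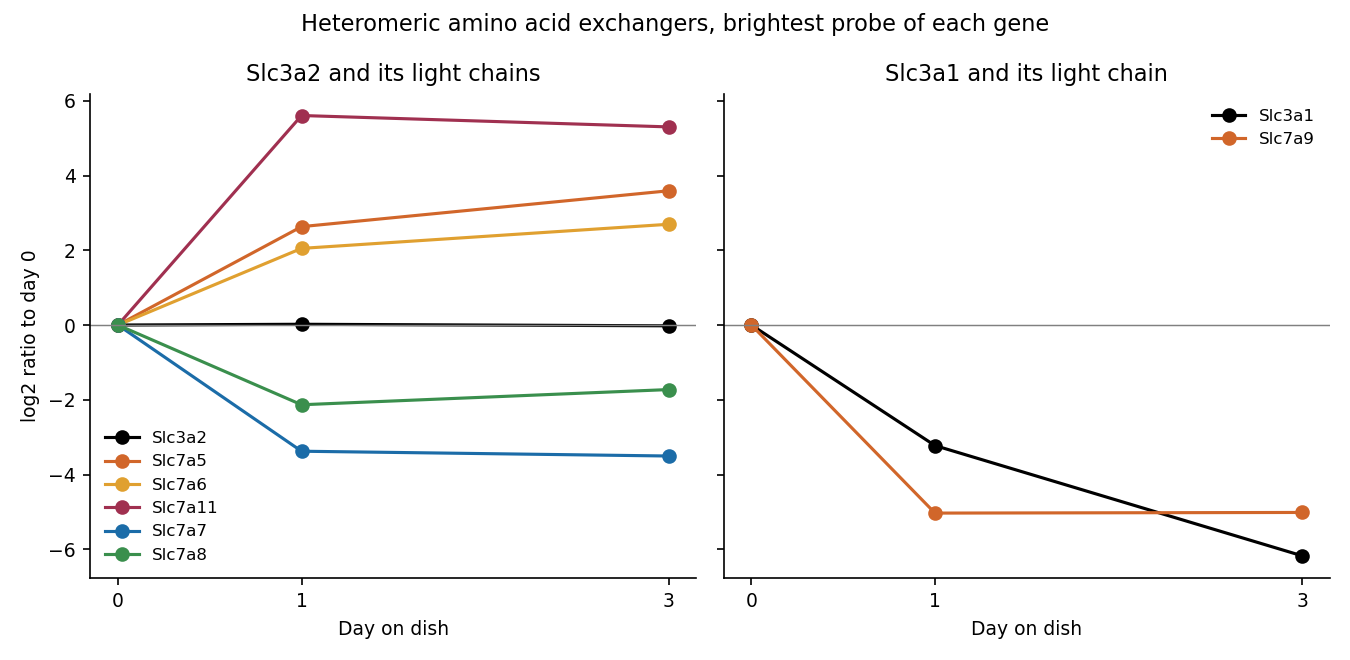
Log2 ratio to day 0 against the day on the dish for the heavy chain gene Slc3a2 and 5 light chain genes that its product carries (left), and for Slc3a1 and its light chain gene Slc7a9 (right), by the brightest probe of each gene. Slc3a2 stays near 0 while Slc7a11, Slc7a5 and Slc7a6 lie above it and Slc7a7, Slc7a8, Slc3a1 and Slc7a9 below.

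Endoplasmic reticulum chaperones, which answer to the other arms of the unfolded protein response, differed mainly on day 3. Of 15, none was 4-fold different on day 1 or day 3 against day 0, with medians of -0.48 and 0.53 (3 were higher on day 3 with spike-in scaling). Over all genes, 3.41% were 4-fold higher and 5.27% lower on day 1, and 5.34% and 8.12% on day 3. With spike-in scaling 2121 of all genes were 4-fold higher on day 3, in place of 1020. On day 3 against day 1, 9 of the chaperones were at least 2-fold higher, against 7.42% of all genes, and none was 2-fold lower, against 8.25%, with a median of 1.16. Only 1, Sdf2l1 at 4.92-fold, was past 4-fold higher, against 1.72% of all genes, or 4 with spike-in scaling. That scaling put 604 of all genes past 4-fold higher on day 3 against day 1, in place of 327. Hspa5, the chaperone BiP, had signals of 34.5, 32.5 and 72.5, and Hsp90b1 had 46.5, 24.0 and 82.7. Manf had 5.20, 4.59 and 15.3 and Creld2 11.5, 11 and 29.4, so these genes were highest on day 3 and were not above fresh cells on day 1. Among the members, Trib3, Phgdh, Chac1, Slc7a5, Psat1 and Ddit3 were also highest on day 3. Already on day 1, Ddit3 was 1.27-fold above fresh cells, Psat1 2.69-fold and the others more.

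Genes with the most similar course to a member were found over the pair of log2 ratios to day 0, as Euclidean distance among 17248 genes well above background on all 3 arrays; with 3 arrays this is a description only. Trib3 had 1 gene within a distance of 0.5, Sprr1a at 0.476, followed by Havcr1 at 0.532 and Il1f6 at 0.566. Asns had 7 genes within 0.5, the nearest being Mlkl at 0.235, Creb5 at 0.311 and Anxa3 at 0.315. Mthfd2 had 9, led by Klf5 at 0.140. Phgdh had 23, led by Akap12, Slc7a5 40, led by Fgd3, and Chac1 43, led by Itpripl2. The remaining members had more genes near them: 553 of the 17248 genes lay within 0.5 of Psat1, 629 of Atf4, 2008 of Ddit3 and 4159 of Slc3a2.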

How the data were processed

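RNA was amplified by a low-input linear kit and labelled with Cy3, per the labels. Per the file headers, the authors measured the spots with Feature Extraction 10.5.1.1, while version 9.1 stands in the submitters' processing notes. The deposited processed signal is an intensity after subtraction of background and spatial detrending, with a multiplicative step on the arrays of day 0 and day 1 but not of day 3. Flags of other kind, for spots well above background, saturated or outliers, were also taken as deposited. The authors' value table holds a ratio on a linear scale: all 43379 values per array lay within 0.001 of processed signal over the 75th percentile of the array.

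Of 45018 spots per array, 1639 controls and 94, 102 and 85 flagged spots on days 0, 1 and 3 were left out. Signals were divided by the 75th percentile of non-control spots and compared as log2. Names came from RefSeq by accession (26880 of 41174 probes), symbol (5031) or synonym (831), and 8432 stayed unnamed. A gene stands for its probe with the highest mean signal, and each comparison used the genes that stood well above background on either array. Calls start at 4-fold. No test could be made on 1 array per day; precision is limited by the number of arrays. Other scalings, normexp background correction (limma 3.58.1, R 4.3.3, offset 50), probe averaging, a filter on dim probes, kept outliers, a 2-fold line and a narrower motif were the 9 alternatives. The counting was tested on simulated data.

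The members and the 9 gene lists were chosen with earlier results of these data known. From each list, up to 4 genes of largest ratio per direction and comparison were named, any gene of the sensor list, synthetases on either side of the 4-fold line, and the genes whose promoters held the motif and whose windows are printed. Slc7a8, Slc7a2 and Pycrl were named outside this rule, after their values were seen. Exon and UTR positions of the probes on mm9 were not analysed here. The promoter window of 1 synthetase gene is not reported here.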

Additional observations from a re-analysis of the deposited data

How the results depend on the processing

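The count of members at least 4-fold higher on day 1 than on day 0 was 6 under all alternatives except the 2-fold line, which gave 8. On day 3 against day 0 it was 7 with median centring, which adds Psat1, 8 with spike-in scaling, which adds Psat1 (log2 ratio 2.53) and Atf4 (2.17), 8 with the 2-fold line, and 6 otherwise, and on day 3 against day 1 it was 0 under all. Members with the motif numbered 1 with the narrower motif, in place of 3. Signs turned only for ratios near 0: on day 3 against day 1 those of Asns and Mthfd2 (spike-in scaling and normexp, for Mthfd2 also median centring), Atf4 (spike-in scaling) and both probes of Slc3a2 (spike-in scaling, for the brighter also median centring), and on day 3 against day 0 that of the brighter Slc3a2 probe. In log2 units over the 75th percentile, the change from day 0 was -0.20 (day 1) and -0.65 (day 3) for spike-ins, -0.21 and -0.31 for the median spot, and -0.17 and -0.03 for 14 reference genes. Over all genes, 644 were at least 4-fold higher and 997 lower on day 1 than on day 0, 849 and 812 with median centring, 846 and 822 with spike-in scaling, 798 and 850 with reference gene scaling, and 2580 and 2946 with the 2-fold line. On day 3 against day 0, 1020 were higher and 1552 lower, 1425 and 1142 with median centring, 2121 and 843 with spike-in scaling, and 3180 and 4146 with the 2-fold line. On day 3 against day 1, 327 were higher and 258 lower, 604 and 134 with spike-in scaling, 212 and 133 with normexp, and 1409 and 1568 with the 2-fold line. Among cytosolic synthetases, 10 were at least 4-fold higher on day 1 with median centring or spike-in scaling, and 17 on day 3 with spike-in scaling; the medians nearest 0, those of the other output genes on both days, the sensor and partner lists on day 3, the serine and folate list on day 1 and the other non-essential amino acid enzymes on day 3, took the other sign under at least 1 scaling or with probe averaging. Eif2s1 passed 4-fold on day 3 with median centring, reference gene scaling, spike-in scaling and normexp. Scalings other than quantile move every ratio of an array pair alike; the cause of the shifts between them was not tested. No paired analysis was possible because each day was 1 array.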

Other observations

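Over the whole array, genes with and without the core TGATGNAA were set side by side, with no test. Of 518 measured genes whose promoter held it, 4.05% were at least 4-fold higher on day 1 than on day 0, against 3.29% of 14386 genes whose promoter did not. On day 3 against day 0 the shares were 6.63% of 528 genes with it and 5.20% of 14540 without. Genes with the core were also at least 4-fold lower on day 3 in 8.71% of cases, against 8.07% without it. For the narrower core TGATGCAA, the shares higher were 5.38% of 130 genes with it and 3.3% of 14774 without on day 1, and 9.09% of 132 and 5.22% of 14936 on day 3, when 12.9% with it and 8.05% without were lower. Among the lists beside the members and the cytosolic synthetases, the core stood in 3 of 14 partner factors, 3 of 17 other output genes, 3 of 12 other enzymes of non-essential amino acids and 3 of 18 transporters, and in none of the sensor, serine and folate or chaperone genes found in the table. Of all genes in the table, 4.51% held it.

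Some holders of the core lay on opposite sides of the culture difference. Their windows are printed because the letters are the same, with the core in capitals.
Slc7a11, chr3:50443642-50443671, minus strand: acctggagaatTTGCATCAtcatgcagccc
Nupr1, chr7:126625562-126625591, minus strand: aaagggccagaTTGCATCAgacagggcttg
Atf3, chr1:191183425-191183454, minus strand: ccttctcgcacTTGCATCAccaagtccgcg

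On day 1 against day 0, Slc7a11 was 48.7-fold higher, Nupr1 2.35-fold higher and Atf3 8.45-fold lower. In each printed window TGATGCAA is on the strand opposite to the gene. Slc7a11 also holds it on its own strand, at bases -66 to -59 from the start.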
